A study of Drosophila melanogaster with 37 samples.

Results

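The cofactors of MSL targeting and spreading are 7 genes whose products are linked to the male-specific lethal (MSL) complex or to the chromatin of the male X but are not subunits of the complex. They were chosen by name as JIL-1, Set2, Unr, Nap1, Iswi, Top2 and Su(var)3-7, and each was found once in the transcription unit annotation of the study, 7 of 17698 genes. A transcription unit (TU) is a stranded interval of the genome that holds 1 gene or several. The values below are the TUs' positions in build dm6, with 1-based coordinates, and the background is the 12934 protein-coding TUs, those that hold at least 1 protein-coding gene, of the X, 2L, 2R, 3L and 3R.

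The study recorded nascent transcription by mNET-seq, in which RNA polymerase II (Pol II) is immunoprecipitated and the RNA it holds is sequenced, in stage 15 Drosophila melanogaster embryos. The 37 samples form 12 groups of 2 to 4 by antibody, sex and RNAi. The mof RNAi groups held 4 female and 3 male samples of total Pol II, 4 female and 4 male samples of Pol II phosphorylated on serine 5 (Ser5) of its C-terminal domain (CTD), and 2 female and 2 male samples of the serine 2 (Ser2) form. The control RNAi groups held 4 female and 3 male samples of total Pol II, 3 female and 4 male samples of Ser5, and 2 female and 2 male samples of Ser2. The RNAi acted maternally, each preparation used 6000 embryos, and the labels name neither the driver nor the target of the control RNAi. Coverage of these samples was not analysed here, so no level, fold change or depth is given for any gene. No sequence of the 7 genes is shown either, because promoter and protein sequences were not used here.

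In male flies the MSL complex binds the X, acetylates histone H4 through MOF and raises X-linked transcription. It first binds at high-affinity sites and from there spreads to active genes, where its MSL3 subunit recognises methylated histone H3. Chromatin proteins outside the complex take part in targeting, in spreading or in keeping the male X in shape. Su(var)3-7, Iswi and JIL-1 are known for the misshapen male X polytene chromosome that follows when their dose is altered in larvae.

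The 7 genes were spread over the arms, with 1 on the X, 1 on 2L, 2 on 2R, 2 on 3L and 1 on 3R. The X held 15.6% of the protein-coding TUs. Each of the 7 was the only gene of its TU, and 8.40% of the protein-coding TUs held several genes. An interval of this annotation that carries one of the 7 names therefore holds no other gene on its strand. Pairs on the same arm were far apart. JIL-1 and Unr were separated by 2.64 Mb and 319 whole TUs on 3L, and Nap1 and Iswi by 11.3 Mb and 1883 whole TUs on 2R. Set2, the X-linked member, lay 1.83 Mb from roX2, 7.54 Mb from mof and 9.55 Mb from roX1. These are the 2 RNA genes and the acetyltransferase gene of the complex, on the same chromosome.

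**Figure D1:**
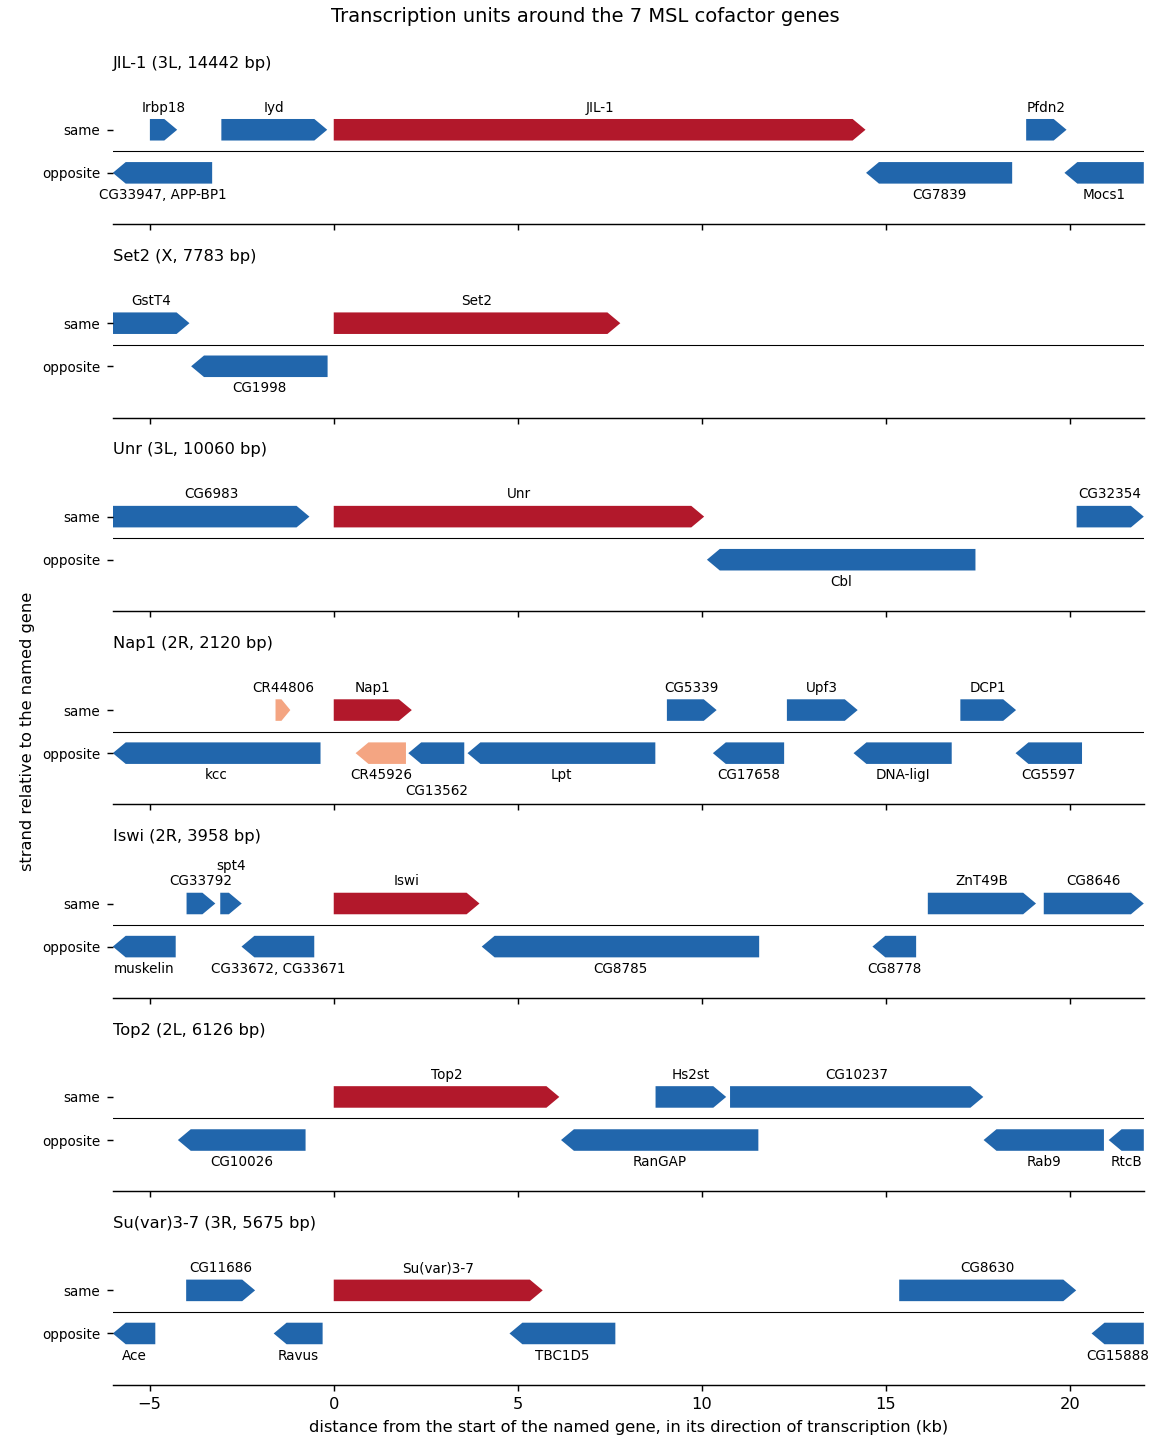
Map of the TUs around each of the 7 genes, drawn to scale from 6 kb before to 22 kb after its start, with the named gene in red and turned to run left to right. TUs with a protein-coding gene are blue and TUs without one are orange. TUs on the same strand lie above the line and those on the opposite strand below it, and a TU that passes the edge of the panel is clipped. In 6 panels an opposite-strand TU points at or overlaps the right end of the red arrow, while the sequence after Set2 is empty up to the edge of the panel. The next TU after Set2, 24878 bp beyond its end, lies outside the drawn range.

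Set2 (FBgn0030486) encodes the methyltransferase that trimethylates lysine 36 of histone H3 in transcribed gene bodies, the mark to which MSL3 binds. Its TU spanned 7783 bp on the X, plus strand, from 13413242 to 13421024, and 82.3% of the protein-coding TUs were shorter. Among those of the X alone, 77.2% were shorter. It held 2 transcripts. Among the 200 protein-coding TUs nearest to it in length, 63.5% had more transcripts and 13.0% had fewer. Set2 had the closest divergent partner of the 7 genes, CG1998, whose start lay 168 bp upstream on the other strand and whose TU of 3706 bp ran away from Set2. Behind CG1998 lay GstT4, a glutathione S-transferase gene, which ended 3918 bp before the start of Set2 on its own strand.

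The other end of Set2 had no near neighbour. The next TU on either strand was Neto, which began 24878 bp downstream on the same strand with a TU of 81380 bp, and 1.55% of the protein-coding TUs had a larger gap after their end. The next opposite-strand TU, CG34324, lay 35509 bp beyond the end. Within a 50 kb window centred on Set2 there were 5 other TUs, against a median of 8 around the protein-coding TUs of the X, and 75.2% of those had more. A 100 kb window held 15 other TUs, which was above the median of the X for windows of that size. Set2 thus had a near neighbour at its start and none at its end, and no other TU touched its body.

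JIL-1 (FBgn0020412) encodes a kinase with paired kinase domains that phosphorylates serine 10 of histone H3 and is enriched on the male X. It had the longest TU of the 7, 14442 bp on 3L, minus strand, from 11078752 to 11093193, and 89.5% of the protein-coding TUs were shorter. It held 3 transcripts, and 48.0% of the 200 TUs nearest in length had more. JIL-1 lay in a tandem: Iyd, an iodotyrosine deiodinase gene of 2875 bp on the same strand, ended 177 bp before the start of JIL-1. It was the 1 member of the 7 with a same-strand TU ending within 500 bp upstream, an arrangement found for 22.2% of the protein-coding TUs. With a limit of 1000 bp Unr joined it, 2 of 7 against 31.7%. Its nearest facing start was 3303 bp away, that of the TU of CG33947 and APP-BP1.

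At its other end JIL-1 nearly met CG7839, a TU of 3968 bp on the opposite strand, with 15 bp between their ends. This was the smallest gap without overlap next to any of the 7 genes. Beyond CG7839 lay Pfdn2, a prefoldin subunit gene, 4363 bp from JIL-1 on its own strand, and the TU that holds SuUR, the gene of a heterochromatin protein that suppresses replication, began at the far side of that group and ended 9726 bp from JIL-1. The surroundings were crowded. The 50 kb window around JIL-1 held 19 other TUs against an arm median of 10, and 3.60% of the protein-coding TUs of 3L had more. In a 20 kb window, most of which JIL-1 itself fills, there were 2.

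Unr (FBgn0263352) encodes an RNA-binding protein with cold shock domains. In females it acts with Sxl to block translation of the msl-2 messenger RNA, and in males it assists the targeting of the MSL complex. Its TU spanned 10060 bp on 3L, minus strand, from 8432322 to 8442381, and 85.4% of the protein-coding TUs were shorter. Unr had the most transcripts of the 7, 5, and 7.51% of the protein-coding TUs had more. Of the 200 TUs nearest in length, 72.0% had fewer transcripts and 19.5% had more. The transcript count of Unr was thus high also for its length, while those of Set2, JIL-1, Top2 and Su(var)3-7 had more TUs above them than below at their lengths.

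The surroundings of Unr were sparse, with 6 other TUs in the 50 kb window against an arm median of 10. The next TU upstream was CG6983 on the same strand, which ended 660 bp before the start, and the nearest facing start, that of Gug, an Atrophin corepressor gene of 22748 bp, was 7541 bp away, beyond CG6983. Unr had the most distant facing start of the 7. At its end, Cbl, a ubiquitin ligase gene of 7293 bp on the opposite strand, ended 75 bp away. After Cbl the next TU on the strand of Unr was CG32354, 10116 bp from its end.

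Nap1 (FBgn0015268) encodes a chaperone of histones H2A and H2B that assists nucleosome assembly. It was the shortest of the 7, with 2120 bp on 2R, minus strand, from 23905175 to 23907294, and the 1 member below the median length of 2229.5 bp over the protein-coding TUs. It held 3 transcripts, and 84.0% of the 200 TUs nearest in length had fewer, the highest such share of the 7. The start of Nap1 faced that of kcc, a potassium chloride cotransporter gene of 17413 bp with 7 transcripts, at 360 bp.

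Nap1 was the most overlapped of the 7. The antisense RNA gene CR45926, 1367 bp long, lay wholly inside it on the opposite strand and covered 64.5% of its length, from 594 to 1960 bp after the start of Nap1. The protein-coding gene CG13562 met it tail to tail and overlapped its last 95 bp, or 4.48%. Together these TUs covered 1462 bp of Nap1, 69.0%, and left 658 bp with no TU on the other strand, most of it at the start. Beyond CG13562 lay Lpt, a gene of a histone methyltransferase complex, 1513 bp from Nap1. The 50 kb window held 15 other TUs against an arm median of 11. Per the labels, the processed output includes a coverage summed over both strands. In such a sum, signal within the 1462 bp could not be assigned to Nap1, CR45926 or CG13562, whereas coverage kept by strand would separate them.

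Iswi (FBgn0011604) encodes the ATPase shared by the NURF, ACF and CHRAC nucleosome remodelling complexes. Its TU spanned 3958 bp on 2R, plus strand, from 12636671 to 12640628, longer than 68.8% of the protein-coding TUs, and held 3 transcripts. Of the 200 TUs nearest in length, 64.0% had fewer transcripts. A TU of CG33672 and CG33671, 1976 bp long, had its start 530 bp upstream on the opposite strand, just beyond the 500 bp that defined a divergent partner. The same TU overlapped the end of spt4 further upstream, the gene of an elongation factor that acts with Spt5 on Pol II, which ended 2498 bp before Iswi on the strand of Iswi. Downstream, CG8785, 7535 bp on the opposite strand, ended 61 bp from the end of Iswi. The 50 kb window held 12 other TUs against an arm median of 11.

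Top2 (FBgn0284220) encodes topoisomerase II, which passes DNA strands through each other and has been reported in association with the MSL complex. Its TU spanned 6126 bp on 2L, minus strand, from 19447365 to 19453490, the median length of the 7, and 78.4% of the protein-coding TUs were shorter. It held 2 transcripts, and 52.5% of the 200 TUs nearest in length had more. Top2 had the widest upstream gap of the 7. The nearest start, that of CG10026 on the opposite strand, was 766 bp away, and the nearest same-strand TU upstream, CR45723, ended 16574 bp before it. At its end lay RanGAP, the gene of the GTPase-activating protein of Ran, 5359 bp long and ending 47 bp from Top2. Hs2st, 2614 bp beyond the end on the strand of Top2, lay opposite to RanGAP, inside its span. The 50 kb window held 12 other TUs against an arm median of 11.

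Su(var)3-7 (FBgn0003598) encodes a zinc finger protein of heterochromatin that binds HP1 and, in excess, condenses the male X. Its TU spanned 5675 bp on 3R, plus strand, from 13264364 to 13270038, longer than 76.8% of the protein-coding TUs, with 2 transcripts. Of the 200 TUs nearest in length, 47.5% had more transcripts and 22.5% had fewer. Its start faced that of Ravus, a TU of 1329 bp, at 303 bp. Its end overlapped that of TBC1D5, whose opposite-strand TU of 2875 bp covered the last 902 bp of Su(var)3-7, or 15.9%, and had 31.4% of its own length in the overlap. The first 4773 bp of Su(var)3-7 had no TU on the other strand. Ace, the acetylcholinesterase gene, a TU of 36567 bp, had its start 4847 bp upstream of Su(var)3-7. The 50 kb window held 9 other TUs against an arm median of 10.

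**Figure D2:**
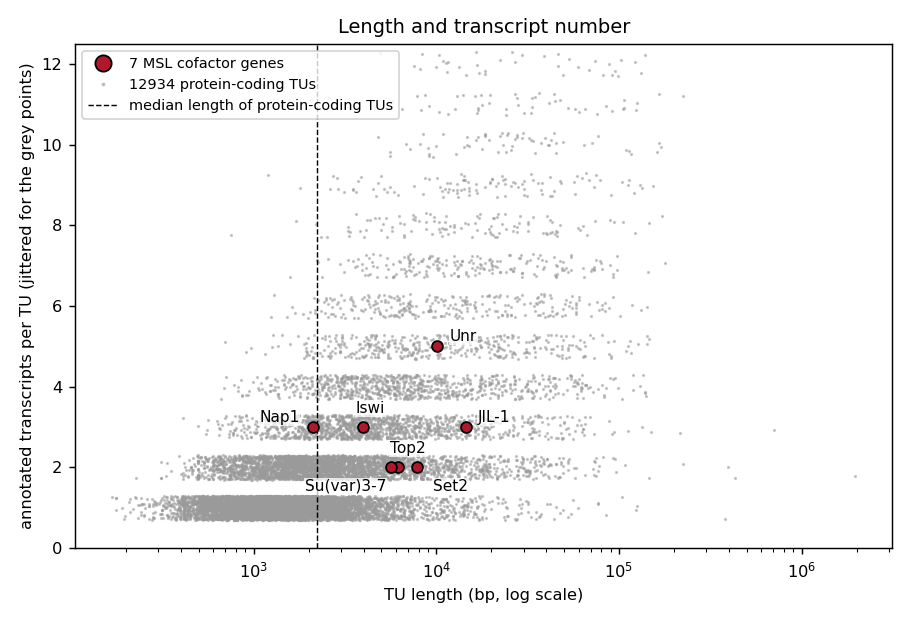
TU length (x axis, bp, log scale) against annotated transcripts per TU (y axis) for the 7 cofactor genes (red) and the 12934 protein-coding TUs (grey, jittered vertically), with the median length of the latter dashed. The axis ends at 12 transcripts and leaves out 128 grey points above it. Nap1 lies just left of the dashed line and the other 6 genes to its right, while Unr is highest at 5 transcripts.

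Across the 7 genes the median TU was 6126 bp long, ranging between 2120 and 14442 bp, against a median of 2229.5 bp (interquartile range 1205 to 5203) over the 12934 protein-coding TUs. Of the 7, 6 were longer than that median. Against the median of their own arm it was the same 6, and Nap1 was longer than the median of all TUs of the 5 arms. The 7 genes held 20 transcripts, 2 to 5 each with a median of 3, against a median of 2 (interquartile range 1 to 3). More than 2 transcripts were listed for JIL-1, Unr, Nap1 and Iswi, 4 of 7, and for 27.3% of the protein-coding TUs. Per kb they had a median of 0.352 transcripts against 0.714. Nap1, at 1.42 per kb, and Iswi, at 0.758, lay above that value and the other 5 below it. This ratio falls with length: the 200 TUs nearest in length had a mean of 1.74 transcripts for Nap1 and 4.16 for JIL-1. Beside TUs of like length the counts were mixed. Most of the 200 had fewer transcripts than Unr, Nap1 and Iswi, while for Set2, JIL-1, Top2 and Su(var)3-7 those with more outnumbered those with fewer. The RefSeq table listed the same number of transcripts for each of the 7 and as many proteins, and the same start and end. These counts rest on named members of a census, so they carry no test.

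The starts of the 7 genes had partners at various distances. A divergent partner, an opposite-strand start up to 500 bp upstream, was found for Set2, Nap1 and Su(var)3-7, 3 of 7, and for 27.3% of the protein-coding TUs. The partners CG1998, kcc and Ravus each held 1 protein-coding gene. Iswi at 530 bp and Top2 at 766 bp joined them when the limit was 1000 bp, which made 5 of 7 against 36.6%. With a limit of 250 bp Set2 was left, 1 of 7, against 1815 of the 12934 protein-coding TUs. With a start as the anchor, no other TU came within 500 bp on either side of it for Unr, Iswi and Top2, 3 of 7, a feature of 40.4% of the protein-coding TUs. The starts of JIL-1, Set2, Nap1 and Su(var)3-7 had another TU that close, which for JIL-1 was the end of Iyd on its own strand and for the others the divergent partner.

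**Figure D3:**
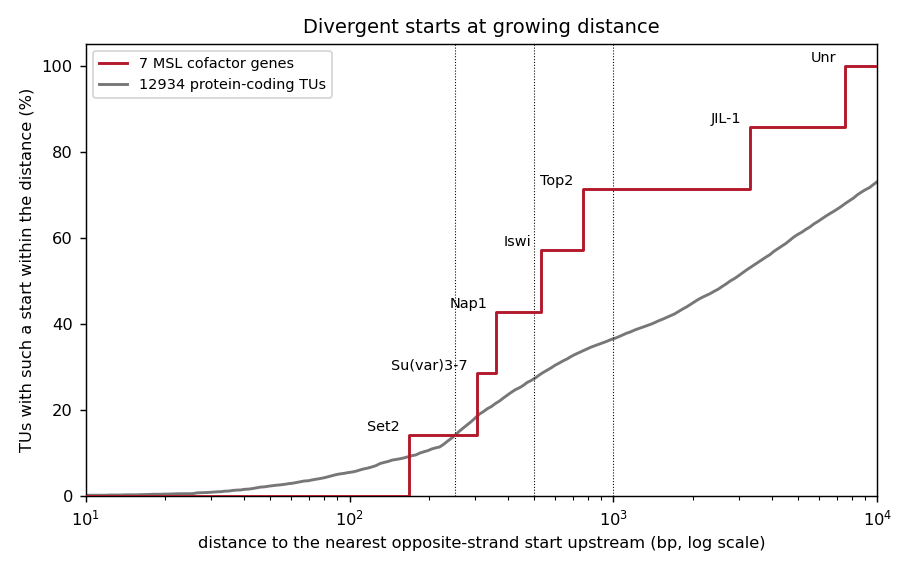
Percentage of TUs (y axis) with an opposite-strand start upstream within the distance on the x axis (bp, log scale), for the 7 cofactor genes (red steps) and the 12934 protein-coding TUs (grey). Dotted lines mark 250, 500 and 1000 bp. The red steps stand at 168 bp for Set2, 303 bp for Su(var)3-7, 360 bp for Nap1, 530 bp for Iswi, 766 bp for Top2, 3303 bp for JIL-1 and 7541 bp for Unr.

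The ends of the 7 genes were closer to their neighbours than the starts were, except at Set2. A convergent partner, an opposite-strand TU that ended within 500 bp of the gene's end or overlapped it tail to tail, was found for each gene but Set2, 6 of 7, and for 43.4% of the protein-coding TUs. The convergent partners of JIL-1, Unr, Iswi and Top2 ended 15, 75, 61 and 47 bp away without overlap. Such an end within 100 bp and no overlap was found for 11.0% of the protein-coding TUs, and within 50 bp, as for JIL-1 and Top2 (2 of 7), for 6.49%. The convergent partners of Nap1 and Su(var)3-7 overlapped them by 95 and 902 bp. All 6 partners, CG7839, Cbl, CG13562, CG8785, RanGAP and TBC1D5, were protein-coding. No other TU came within 500 bp of the end of Set2, 1 of 7, against 28.8% of the protein-coding TUs. For the other 6, polymerase that runs past the annotated end would be on the strand opposite to the last bases of a partner, so a sum over strands would mix it with the partner's signal.

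**Figure D4:**
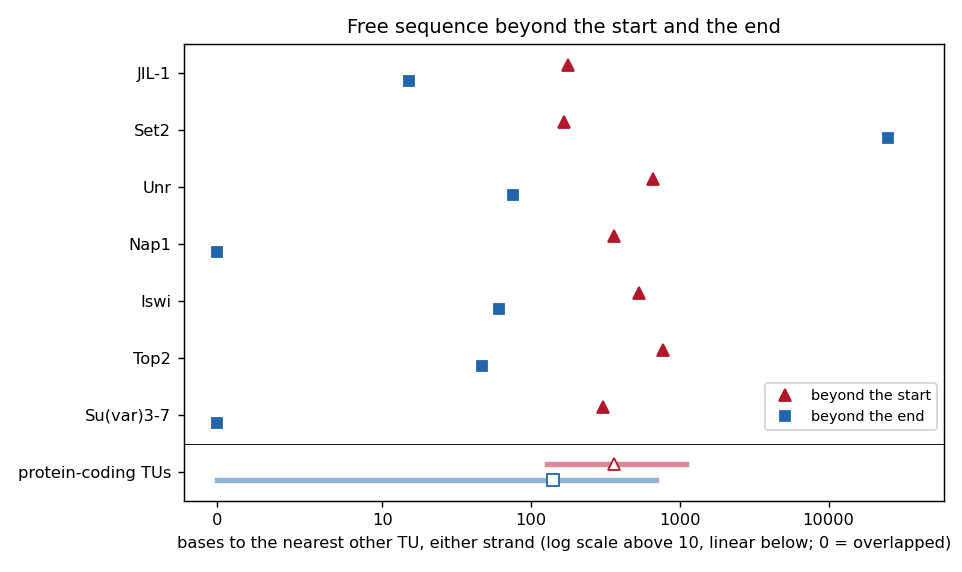
Bases to the nearest other TU on either strand beyond the start (red triangles) and beyond the end (blue squares) of each cofactor gene, above the medians (open symbols) and interquartile ranges (bars) of the 12934 protein-coding TUs. The x axis is logarithmic above 10 bp and linear below, and 0 means that a TU overlaps that end. Gaps beyond the start lie between 167 and 765 bp, and gaps beyond the end lie between 0 and 75 bp except for Set2 at 24878 bp.

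The gap beyond the start had a median of 359 bp and a range of 167 to 765 bp over the 7 genes, against a median of 363 bp (interquartile range 128 to 1102.8) over the protein-coding TUs. The gap beyond the end had a median of 47 bp, with 0 for Nap1 and Su(var)3-7 and 24878 bp for Set2, against a median of 141 bp (interquartile range 0 to 689). All but Set2 had the wider gap at the start, 6 of 7, as did 60.6% of the protein-coding TUs. The nearest TU on either side lay within 100 bp for the same 6 genes and for 56.1% of the protein-coding TUs.

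On their own strand 6 of the 7 genes were followed by a gap wider than the median of the protein-coding TUs. The next same-strand TU began 2614 bp after Top2, 4363 bp after JIL-1, 6928 bp after Nap1, 9682 bp after Su(var)3-7, 10116 bp after Unr, 12176 bp after Iswi and 24878 bp after Set2. The median of 9682 bp stood against 2649.5 bp over the protein-coding TUs, and Top2 was the 1 member below that value. Upstream on the same strand the gaps ran from 177 bp at JIL-1 and 660 bp at Unr to 16574 bp at Top2, with a median of 2136 bp against 2587.5 bp.

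An overlap with an opposite-strand TU of at least 1 bp was found for Nap1 and Su(var)3-7, 2 of 7, and for 39.8% of the protein-coding TUs. An overlap that covered at least 50% of the shorter TU was found for Nap1, 1 of 7, and for 19.2%. The bodies of JIL-1, Set2, Unr, Iswi and Top2 were free of any other TU over their whole lengths of 14442, 7783, 10060, 3958 and 6126 bp. None of the 7 was isolated, a term for TUs of 2000 bp or more whose ends are both over 500 bp from every other TU, 0 of 7 against 10.4%. All 7 genes reached that length, whereas the 10.4% is a share of all 12934 protein-coding TUs, including those too short to be called. For 50 kb windows, JIL-1, Nap1, Iswi and Top2 had more TUs around them than the median of their arm, 4 of 7, as did 45.7% of the protein-coding TUs. For 20 kb windows this held for Nap1, 1 of 7, and for 43.2%. For 100 kb windows it held for JIL-1, Set2, Nap1, Iswi and Top2, 5 of 7, and for 47.7%. Each window was centred on the gene, so a long TU left less of a 20 kb window for others. Of the 7 genes, 6 were longer than the median protein-coding TU, and Nap1 was the shortest. How far length set these counts was not tested. The counts in 50 kb windows ran from 5 around Set2 to 19 around JIL-1.

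The same features were counted in lists of genes that act beside these 7, again without a test. Of the 12934 protein-coding TUs, 27.3% had a divergent start, 39.8% an overlap and 43.4% a convergent partner, and 10.4% were isolated. Lengths and transcripts are those of whole TUs, and some of these TUs hold further genes. None of the listed genes lay within 10 kb of one of the 7. The list of the MSL complex and its RNAs also held Clamp, which had an overlap and a convergent partner. The 8 TUs of this list, msl-1 and msl-2 among them, had a median length of 3660 bp. They had 2 divergent starts, 3 overlaps, 4 convergent partners and 0 isolated TUs. This list includes the RNA genes roX1 and roX2, whereas the shares above are of protein-coding TUs. Of these RNA genes, roX1 had an overlap and a convergent partner, and roX2 had none of the features. The partners of ISWI in its complexes and other remodellers (10 TUs) had a median of 6990 bp. They had 7 divergent starts, 4 overlaps, 6 convergent partners and 1 isolated TU. Among these, Acf, the large subunit of ACF, measured 5819 bp and Chrac-14 592 bp, and both had a divergent start. Histone methyltransferases (7 TUs) had a median of 5615 bp, 4 divergent starts, 4 overlaps, 3 convergent partners and 1 isolated TU. NSD, which also methylates lysine 36 of histone H3, measured 4872 bp and had a divergent start, an overlap and a convergent partner.

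Partners of JIL-1 at polytene interbands and other chromatin kinases (5 TUs) had 4 divergent starts, 2 overlaps, 3 convergent partners and 0 isolated TUs. The shares of the protein-coding TUs given above apply here too. Chro, which binds JIL-1, shared a TU of 6605 bp with 1 other gene. Regulators of messenger RNA linked to Unr (7 TUs) had a median of 7114 bp and 6 transcripts. That length is of the TU of pAbp, which held 4 genes, and the TU of Sxl held 2. The list had 3 divergent starts, 1 overlap, 5 convergent partners and 2 isolated TUs, Sxl and how. Relatives of Nap1 and other histone chaperones (11 TUs) had a median of 2540 bp. Of these, 9 had a convergent partner, 5 an overlap and 4 a divergent start, and 0 were isolated. Nap1 itself measured 2120 bp, against 1702 bp for Set and 1339 bp for mil of this list. Topoisomerases and condensin genes (8 TUs) had a median of 4354 bp, 5 divergent starts, 3 overlaps, 4 convergent partners and 0 isolated TUs. Top1 measured 8551 bp with 5 transcripts. Heterochromatin genes (8 TUs) had a median of 2777 bp, 5 divergent starts, 3 overlaps, 3 convergent partners and 1 isolated TU. Among them Su(var)2-HP2, whose product binds HP1, measured 10965 bp and had none of these features.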

How the data were processed

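The deposited file used is the study's TU annotation in build dm6, which per the file headers was exported by rtracklayer 1.48.0 as GFF version 2. Its values, deposited by the authors, are interval starts and ends in bp, with gene and transcript identifiers. Cutadapt 2.8, STAR 2.7.4a, SAMtools 1.20, DESeq and DESeq2 are named in the submitters' processing notes, and how genes were merged into TUs is not given in the sources used here. Genes were matched to the RefSeq gene table (Release 6 plus ISO1 MT) by their symbols or else by synonyms unique on the chromosome, which named 17589 of 17698. RefSeq there gives no strand, so a gene took that of its TU.

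Distances between facing starts are differences of coordinates, and gaps count the bases between TUs. A percentile is the share of protein-coding TUs with a smaller value. The interval functions were tested on simulated data against plain loops, with 0 of 800 TUs wrong. Computation used Python 3.11.15, numpy 2.4.6 and matplotlib 3.10.9.

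The members, the gene lists and the thresholds were chosen with earlier results of these data known, and no test was run. The rule named the 7 members, the TUs that overlap, face or lie nearest to them, and up to 4 genes of each list. Other nearby genes, named for what they encode (SuUR, Lpt, spt4, GstT4, Ace, Hs2st), and NSD, how, Top1 and Clamp from the lists were picked after their values were seen. Of the lists, Z4 had no unique match (it is a synonym of br and of pzg, which is listed itself), lola was counted once although written in 2 spellings, and hanabi is a synonym of mil. Planned counts of promoter motifs and protein features were not run.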

Additional observations from a re-analysis of the deposited data

How the results depend on the processing

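Of 22 alternative settings, 16 gave a count of members within 1.5 times the reported one, and 14 called the same genes. Both totals include settings whose outcome was fixed in advance, which say nothing about stability. The setting with single-gene TUs changed the background alone, so the 3 divergent partners stayed. A gap of 1000 bp for isolated TUs was stricter than 500 bp, which already gave 0. RefSeq lists as many transcripts for each of the 7 genes, and the same 4 were called. Wider limits, 1000 bp for convergent partners and 200 bp for close ends, had to keep every gene already called. The overlaps of 1367 bp in Nap1 and 902 bp in Su(var)3-7 had to pass a limit of 100 bp. Likewise the gap of 177 bp before JIL-1 had to pass 250 bp. The 2 totals are therefore no measure of stability. Divergent partners numbered 1 within 250 bp (Set2) and 5 within 1000 bp (Iswi and Top2 added), against 3. Overlaps numbered 1 (Nap1) when at least 50% of the shorter TU had to be covered, against 2. Among protein-coding TUs the share was then 19.2%, against 39.8%. In 20 kb windows 1 gene (Nap1) had more TUs than its arm's median, against 4 in 50 kb windows. The same held for 43.2% and 45.7% of the protein-coding TUs. Convergent ends without overlap numbered 2 within 50 bp (JIL-1 and Top2), against 4, with 6.49% of the protein-coding TUs against 11.0%. Same-strand TUs close upstream numbered 2 within 1000 bp (JIL-1 and Unr), against 1, with 31.7% of the protein-coding TUs against 22.2%. The last 2 features, the count of wider upstream gaps, the windows around starts and ends, and the settings with coding neighbours or single-gene TUs were chosen after seeing the data. The promoter window alternative was not run. The outermost annotated start stands for each gene, and further promoters of a gene were not considered. No paired analysis was possible because the file holds no values per sample.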
